A study of Sus scrofa with 64 samples.

Results

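Transcript levels of 8 genes for enzymes of the citrate cycle and its entry step (PDHA1, CS, IDH3A, IDH2, OGDH, SUCLG1, FH and MDH2) were followed over 16 tissues of the pig. The genes were taken by symbol from the platform annotation of a porcine Affymetrix array, which gave 10 probe sets for the 8 genes, of 23935 probe sets for pig sequences and 6765 gene symbols in all. The study hybridised 64 arrays, so that every tissue was read once per animal in 4 pigs. The Large White (LW) pigs, of a lean breed, were a male of 38.80 kg and a female of 36.20 kg, both 87 days old, and the Iberian (IB) pigs, of a fat breed, were a male of 25.4 kg and a female of 32.8 kg, both 89 days old. Breed, age and weight cannot be told apart with 2 pigs a breed. From the brain and pituitary came the hypothalamus, the olfactory bulb, the pineal gland, the neurohypophysis and the adenohypophysis. The other tissues were the thyroid gland, the medulla and cortex of the adrenal gland, the diaphragm, the hind leg muscle Biceps femoris, abdominal fat, back fat, the epithelium of stomach and ileum, liver and blood. The parts of the adrenal gland were separated mechanically. A level is the log2 of the probe set signal after RMA, so that 1 unit is a doubling of signal, and levels of different genes cannot be set against each other. Values of single arrays are given in the order LW male, LW female, IB male and IB female, and a mean ± SD is over these 4 arrays of a tissue.

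The citrate cycle runs in the mitochondrial matrix, where it oxidises acetyl groups to carbon dioxide and hands the electrons to the respiratory chain. Carbon from sugars enters through pyruvate dehydrogenase, and the cycle also gives up intermediates, citrate for the synthesis of fatty acids in fat and liver and oxaloacetate for the synthesis of glucose in liver. Striated muscle, which turns over much ATP, is rich in mitochondria, and the mature red cells of mammals hold none.

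The tissue labels were set against defining markers. Markers of skeletal muscle, fat, liver, thyroid gland, ileum and stomach were highest in those tissues, for example CKM, encoding muscle creatine kinase, at 13.58, 13.52, 13.47 and 13.52 in the diaphragm and at 6.09 or less on average outside muscle. The adrenal medulla held the cortical enzyme CYP11A1 at 12.65, against 12.73 in the cortex, with PNMT, of the medulla, at 11.35 in the medulla and 9.44 in the cortex. The neurohypophysis held the anterior lobe hormone GH1 at 10.26, against 13.91 in the adenohypophysis. The 3 markers chosen for the olfactory bulb had no probe set under their symbols. Among single arrays, the pineal gland of the LW male had NEUROD1 at 6.10 and the myelin gene MOBP at 11.35, against 9.22 to 9.27 and 3.74 to 5.58 in the other 3 glands, and the Biceps femoris of the IB female had the lowest correlation with the rest of its tissue. Calls of the 8 genes in muscle and pineal gland that changed without one of these arrays are given both ways. In bulk tissue, fewer cells of a type and less RNA per cell cannot be told apart.

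The 2 muscles held the highest levels of the cycle genes and blood nearly always the lowest. The diaphragm ranked first of the 16 tissues for 7 of the 8 genes and second for IDH3A, and Biceps femoris ranked first or second for all but SUCLG1, for which the stomach came between them. Blood was last for 6 genes, liver for CS and back fat for IDH2. Averaged over the 8 genes after each was standardised over the tissues, the profile ran from 1.89 in the diaphragm and 1.60 in Biceps femoris through 0.38 in the stomach, 0.28 in the adrenal cortex and 0.22 in the ileum to -0.68 in the thyroid gland, -0.69 in the neurohypophysis and -1.46 in blood. Tissue accounted for 91.4% (IDH3A) to 97.5% (SUCLG1) of the sum of squares of the levels, against a median of 81.5% over all probe sets. All 8 genes passed the moderated F test for tissue in limma, as did 98.2% of all probe sets. With each tissue set against the mean of the other 15, the 8 genes gave 43 calls of a higher and 60 calls of a lower level in 128 tests, at a Benjamini-Hochberg adjusted p under 0.05. Over all probe sets 22.8% of such tests gave a higher and 27.4% a lower call.

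**Figure D1:**
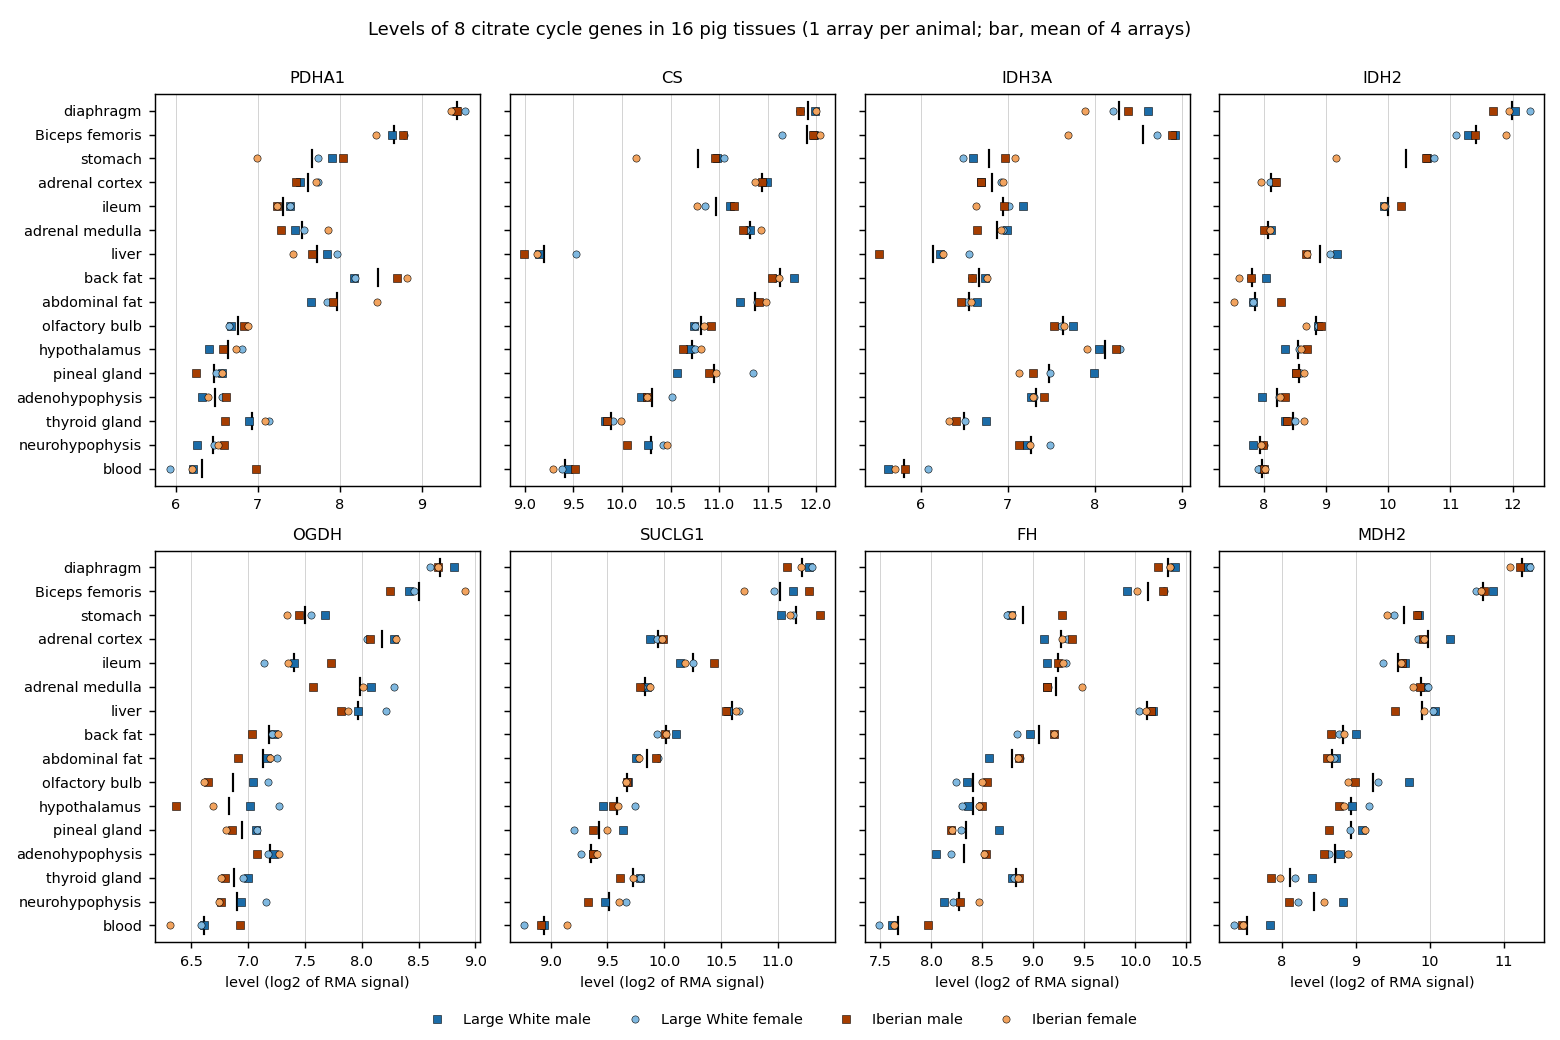
Levels of the 8 genes, 1 panel each, with log2 RMA signal on the horizontal axis and the 16 tissues down the page, ordered by the mean standardised profile of the 8 genes. Each point is 1 array, coloured by animal, and the bar is the mean of 4 arrays. The diaphragm and Biceps femoris lie to the right in every panel, CS falls to 9.20 in the liver, and IDH3A is high in the hypothalamus.

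PDHA1 encodes the catalytic alpha subunit of pyruvate dehydrogenase, which turns pyruvate into the acetyl-CoA that enters the cycle. Its levels were 9.44 ± 0.07 in the diaphragm, 8.66 ± 0.16 in Biceps femoris, 8.47 ± 0.34 in back fat, 7.96 ± 0.35 in abdominal fat, 7.72 ± 0.23 in the liver, 7.66 ± 0.47 in the stomach, 7.61 ± 0.14 in the adrenal cortex and 7.54 ± 0.24 in the adrenal medulla. They were 7.31 ± 0.09 in the ileum, 6.93 ± 0.24 in the thyroid gland, 6.76 ± 0.12 in the olfactory bulb, 6.63 ± 0.18 in the hypothalamus, 6.47 ± 0.14 in the adenohypophysis, 6.46 ± 0.15 in the pineal gland, 6.45 ± 0.15 in the neurohypophysis and 6.32 ± 0.45 in blood. Muscle and fat thus held the 4 highest levels, with all the brain and pituitary samples below the thyroid gland. Among neighbours in this order, arrays did not overlap between the diaphragm and Biceps femoris or between the ileum and the thyroid gland, and overlapped in the other 13 pairs. In back fat the level was 8.17, 8.19, 8.70 and 8.81, and the mean exceeded that of the other 15 tissues by 1.14 (adjusted p = 1.7e-10). In abdominal fat the difference was 0.60 (adjusted p = 0.00014), and PDHA1 and CS were the only genes of the 8 that were called higher in either fat.

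CS, citrate synthase, joins acetyl-CoA to oxaloacetate and is widely used as a measure of mitochondrial content. It had levels of 11.92 ± 0.09 in the diaphragm, 11.91 ± 0.18 in Biceps femoris, 11.63 ± 0.10 in back fat, 11.44 ± 0.05 in the adrenal cortex, 11.38 ± 0.11 in abdominal fat, 11.32 ± 0.08 in the adrenal medulla, 10.97 ± 0.19 in the ileum and 10.94 ± 0.32 in the pineal gland. The lower tissues had 10.82 ± 0.08 in the olfactory bulb, 10.78 ± 0.43 in the stomach, 10.73 ± 0.08 in the hypothalamus, 10.31 ± 0.14 in the adenohypophysis, 10.30 ± 0.19 in the neurohypophysis, 9.89 ± 0.07 in the thyroid gland, 9.41 ± 0.10 in blood and 9.20 ± 0.23 in the liver. Fat and adrenal gland followed muscle, and the liver was at the bottom. The liver arrays stood at 9.15, 9.52, 8.99 and 9.12, and blood at 9.44, 9.38, 9.52 and 9.29. These 2 tissues overlapped with each other, and no array of any other tissue reached down to them. In the liver CS was -1.72 ± 0.10 (SE) log2 units from the mean of the other tissues, 3.29-fold lower (adjusted p = 1.2e-21). The second probe set of CS, whose tissue means correlated with those of the first at r = 0.98 over the 16 tissues, gave -2.07 (adjusted p = 6.3e-22), with liver arrays of 7.32, 7.12, 6.90 and 6.87 that all lay below every blood array. Of 15 neighbours in the order of CS, 10 overlapped.

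IDH3A encodes the catalytic subunit of the NAD-dependent isocitrate dehydrogenase of the matrix, the form that works within the cycle. In its order the brain samples followed muscle. Levels were 8.55 ± 0.58 in Biceps femoris, 8.27 ± 0.30 in the diaphragm, 8.12 ± 0.18 in the hypothalamus, 7.63 ± 0.09 in the olfactory bulb, 7.47 ± 0.37 in the pineal gland, 7.32 ± 0.06 in the adenohypophysis, 7.27 ± 0.15 in the neurohypophysis and 6.94 ± 0.23 in the ileum. Lower levels were 6.87 ± 0.16 in the adrenal medulla, 6.81 ± 0.14 in the adrenal cortex, 6.78 ± 0.29 in the stomach, 6.67 ± 0.09 in back fat, 6.55 ± 0.07 in abdominal fat, 6.50 ± 0.18 in the thyroid gland, 6.14 ± 0.44 in the liver and 5.81 ± 0.20 in blood. In the hypothalamus the arrays read 8.04, 8.29, 8.23 and 7.90, above all olfactory bulb arrays (7.75, 7.61, 7.53 and 7.64), which was the 1 pair of neighbours without overlap. The hypothalamus exceeded the mean of the other tissues by 1.08 (adjusted p = 3.8e-10), the olfactory bulb by 0.56 (adjusted p = 0.00021) and the pineal gland by 0.38 (adjusted p = 0.01). The LW male pineal array, with low pineal markers, was at 7.98, and without it the pineal difference was 0.24 (adjusted p = 0.16). The second probe set gave 0.68 (adjusted p = 0.00045) in the pineal gland, and 0.60 (adjusted p = 0.0072) without that array. With all arrays IDH3A was the only gene of the 8 called higher in a brain sample. Its second probe set had r = 0.98 to the first over tissue means and gave 1.07 (adjusted p = 2.5e-07) for the hypothalamus. By that probe set the arrays of hypothalamus and olfactory bulb overlapped.

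IDH2 encodes the NADP-dependent isocitrate dehydrogenase of mitochondria, which supplies NADPH in the matrix. It spanned the widest range of tissue means, 4.18 log2 units. Levels were 11.99 ± 0.24 in the diaphragm, 11.42 ± 0.34 in Biceps femoris, 10.28 ± 0.75 in the stomach, 9.9999 ± 0.13 in the ileum, 8.90 ± 0.26 in the liver, 8.83 ± 0.11 in the olfactory bulb, 8.57 ± 0.07 in the pineal gland and 8.55 ± 0.15 in the hypothalamus. The remaining levels were 8.47 ± 0.14 in the thyroid gland, 8.21 ± 0.16 in the adenohypophysis, 8.11 ± 0.11 in the adrenal cortex, 8.06 ± 0.05 in the adrenal medulla, 7.97 ± 0.05 in blood, 7.94 ± 0.08 in the neurohypophysis, 7.86 ± 0.31 in abdominal fat and 7.81 ± 0.18 in back fat. After muscle came the 2 gut epithelia, while fat was at the bottom. The stomach arrays read 10.63, 10.73, 10.62 and 9.17, and those of the ileum 9.93, 9.95, 10.20 and 9.93. None of them reached the lowest muscle array of 11.09. The steps from Biceps femoris to the stomach (1.13 between means) and from the ileum to the liver (1.10) were the largest of 4 without overlap. In back fat (8.04, 7.79, 7.79 and 7.60) IDH2 was 2.31-fold lower than in the other tissues on average, a log2 difference of -1.21 (adjusted p = 7.1e-11).

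OGDH encodes the E1 subunit of the 2-oxoglutarate dehydrogenase complex, which forms succinyl-CoA. Levels were 8.69 ± 0.09 in the diaphragm, 8.51 ± 0.28 in Biceps femoris, 8.17 ± 0.14 in the adrenal cortex, 7.98 ± 0.30 in the adrenal medulla, 7.97 ± 0.18 in the liver, 7.504 ± 0.14 in the stomach, 7.40 ± 0.24 in the ileum and 7.19 ± 0.08 in the adenohypophysis. Those below were 7.18 ± 0.10 in back fat, 7.13 ± 0.15 in abdominal fat, 6.95 ± 0.14 in the pineal gland, 6.90 ± 0.19 in the neurohypophysis, 6.87 ± 0.12 in the thyroid gland, 6.87 ± 0.28 in the olfactory bulb, 6.83 ± 0.39 in the hypothalamus and 6.61 ± 0.25 in blood. Among neighbours in this order only liver and stomach did not overlap, and the lowest array of the adrenal medulla, 7.57 in the IB male, lay below the highest of the stomach (7.68) and of the ileum (7.73). The adrenal cortex, at 8.28, 8.04, 8.07 and 8.30, was 0.80 (adjusted p = 4.1e-09) above the mean of the other tissues.

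SUCLG1 encodes the alpha subunit of succinyl-CoA ligase, shared by the forms that make ATP and GTP. Its levels were 11.21 ± 0.10 in the diaphragm, 11.16 ± 0.15 in the stomach, 11.02 ± 0.25 in Biceps femoris, 10.60 ± 0.05 in the liver, 10.25 ± 0.13 in the ileum, 10.01 ± 0.07 in back fat, 9.94 ± 0.05 in the adrenal cortex and 9.85 ± 0.10 in abdominal fat. Below these were 9.83 ± 0.04 in the adrenal medulla, 9.73 ± 0.08 in the thyroid gland, 9.67 ± 0.01 in the olfactory bulb, 9.59 ± 0.12 in the hypothalamus, 9.52 ± 0.15 in the neurohypophysis, 9.43 ± 0.18 in the pineal gland, 9.36 ± 0.06 in the adenohypophysis and 8.94 ± 0.15 in blood. The stomach stood with muscle, at 11.03, 11.13, 11.37 and 11.11, and overlapped with both muscles. The steps down to the liver, from there to the ileum and to back fat, and from the adenohypophysis to blood were without overlap. SUCLG1 in the stomach exceeded the other tissues by 1.23 (adjusted p = 9.7e-21).

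FH, fumarate hydratase, turns fumarate into malate, also in the cytosol. Levels were 10.32 ± 0.07 in the diaphragm, 10.12 ± 0.18 in Biceps femoris, 10.12 ± 0.06 in the liver, 9.28 ± 0.12 in the adrenal cortex, 9.25 ± 0.08 in the ileum, 9.22 ± 0.17 in the adrenal medulla, 9.05 ± 0.18 in back fat and 8.90 ± 0.26 in the stomach. Other levels were 8.83 ± 0.03 in the thyroid gland, 8.79 ± 0.15 in abdominal fat, 8.41 ± 0.09 in the hypothalamus, 8.41 ± 0.14 in the olfactory bulb, 8.34 ± 0.22 in the pineal gland, 8.32 ± 0.24 in the adenohypophysis, 8.27 ± 0.15 in the neurohypophysis and 7.68 ± 0.20 in blood. The liver arrays (10.17, 10.04, 10.16 and 10.11) lay within the range of Biceps femoris (9.92, 10.28, 10.27 and 10.02), and between them and the adrenal cortex lay a step of 0.84 between means, without overlap. The liver exceeded the other tissues by 1.24 (adjusted p = 2.5e-19), a 2.36-fold difference, in the tissue where CS was lowest.

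MDH2, the malate dehydrogenase of mitochondria, closes the cycle by remaking oxaloacetate. It had levels of 11.25 ± 0.12 in the diaphragm, 10.72 ± 0.10 in Biceps femoris, 9.98 ± 0.19 in the adrenal cortex, 9.89 ± 0.25 in the liver, 9.89 ± 0.09 in the adrenal medulla, 9.66 ± 0.22 in the stomach, 9.57 ± 0.14 in the ileum and 9.23 ± 0.38 in the olfactory bulb. Further down were 8.94 ± 0.22 in the pineal gland, 8.93 ± 0.18 in the hypothalamus, 8.82 ± 0.14 in back fat, 8.72 ± 0.15 in the adenohypophysis, 8.67 ± 0.05 in abdominal fat, 8.43 ± 0.33 in the neurohypophysis, 8.10 ± 0.24 in the thyroid gland and 7.53 ± 0.21 in blood. The diaphragm arrays (11.33, 11.35, 11.23 and 11.09) were all above those of Biceps femoris (10.85, 10.62, 10.73 and 10.69), and Biceps femoris was in turn clear of the adrenal cortex, whose highest array was 10.27. The thyroid gland was -1.25 (adjusted p = 9.2e-16) from the mean of the other tissues.

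**Figure D2:**
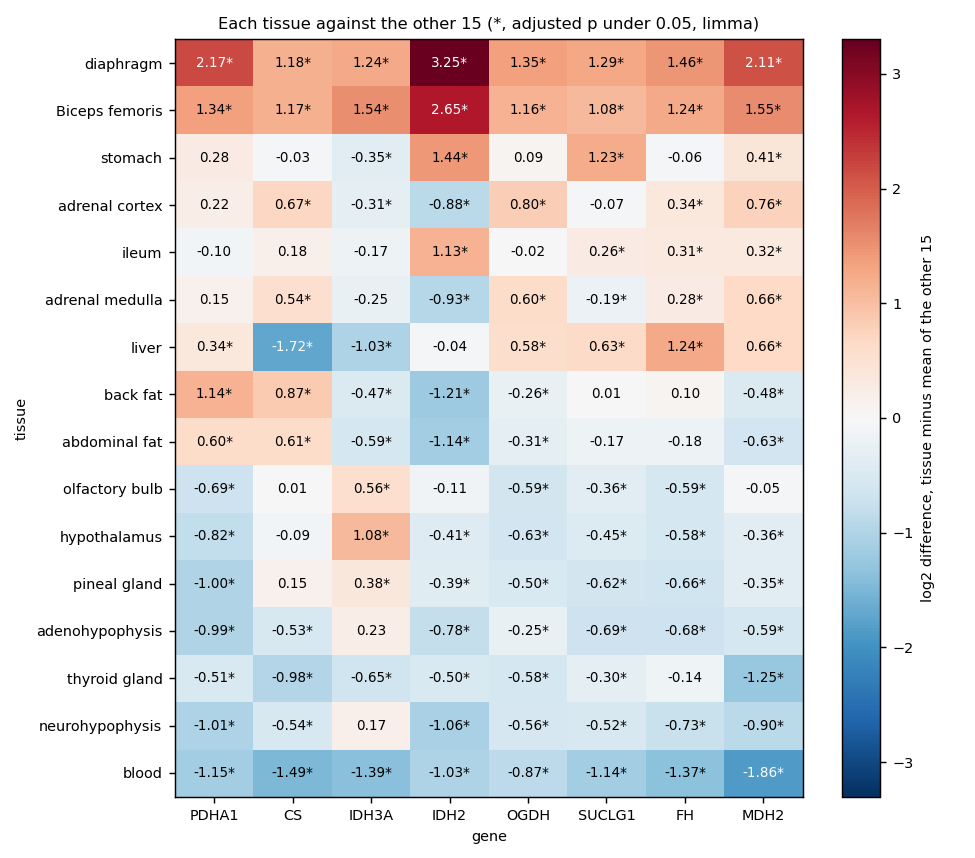
Log2 difference between each tissue (rows, ordered as in the plot of levels) and the mean of the other 15 for each of the 8 genes (columns), fitted over 64 arrays. Red is higher, blue lower, and an asterisk marks an adjusted p under 0.05 in limma. Both muscle rows are red throughout, the blood row is blue throughout, and the liver row runs from -1.72 for CS to 1.24 for FH.

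All 8 genes were higher in the 2 muscles than in the mean of the other 14 tissues, where 35.4% of all probe sets were higher and 34.9% lower. The largest difference was that of IDH2, 3.16 ± 0.10 log2 units (SE), or 8.94-fold (adjusted p = 1.8e-33). MDH2 followed with 1.96 ± 0.07 and PDHA1 with 1.88 ± 0.09, 3.9-fold and 3.69-fold. IDH3A (1.49), FH (1.45), OGDH (1.34), SUCLG1 (1.27) and CS (1.26) were between 2.4-fold and 2.81-fold higher, with adjusted p of 4.6e-20 or less. The 8 muscle arrays of IDH2 ran from 11.09 through a median of 11.79 to 12.27, and the other 56 from 7.53 through 8.34 to 10.73, so the groups did not overlap. For MDH2 they did not overlap either, at 10.62 to 11.35 in muscle and 7.35 to 10.27 elsewhere. The share of all probe sets without overlap between muscle and the other tissues was not computed. For the other genes 1 (CS) to 6 (IDH3A) of the 56 arrays reached the lowest muscle array. By the second probe sets the counts were 0 for CS and 1 for IDH3A, the latter 0 without the Biceps femoris of the IB female. By the first probe sets the counts without that array were 5 for IDH3A and 2 for PDHA1, against 6 and 3 with it. By the first probe sets, the arrays that reached the lowest muscle array came from back fat for CS and back and abdominal fat for PDHA1. For IDH3A they came from the hypothalamus, olfactory bulb and pineal gland. For SUCLG1 they came from the stomach, for FH from the liver and for OGDH from both parts of the adrenal gland. The signal of GAPDH in its 3' minus its 5' control probe set was -0.05 to 0.18 in the muscle arrays and 0.47 to 2.24 in the others. That of actin was 1.76 to 2.19 in the muscle arrays and 1.77 to 3.45 in the others, so by actin muscle did not stand apart. The part of RNA quality in the muscle differences was not tested.

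The rest of the pathway was taken from gene lists, each gene by its brightest probe set. Of 10 other genes of the cycle, 8 were higher in muscle, led by SUCLA2 (1.56), a succinyl-CoA ligase beta subunit, and SDHB (1.52), the iron-sulphur subunit of succinate dehydrogenase, with a list median of 1.33 against 0.02 over all probe sets and 1.47 over the 8 genes. The 2 that were not called were SUCLG2 (0.10), the other beta subunit, and IDH3B (-0.20), a regulatory partner of IDH3A. In the pyruvate dehydrogenase list 3 of 5 were higher and 2 lower, with PDK4, a kinase that switches the complex off, at 2.53 and the E2 subunit DLAT at 1.61. Of 9 cytosolic counterparts and shuttle genes 6 were higher and 3 lower. The mitochondrial carriers SLC25A12 (2.44) and SLC25A11 (2.11), parts of the malate-aspartate shuttle, were at the top, and IDH1, the cytosolic NADP-dependent isocitrate dehydrogenase, was the lowest at -1.91. All 3 genes that refill or drain the cycle were lower, among them PC, pyruvate carboxylase (-1.18), and PCK1, the cytosolic phosphoenolpyruvate carboxykinase (-1.07). The coactivator PPARGC1A was higher (2.45) and the mitochondrial DNA factor TFAM lower (-0.73). Without the Biceps femoris of the IB female TFAM was -0.30 (adjusted p = 7.8e-05), SUCLG2 was called higher at 0.56 (adjusted p = 4.1e-07) and IDH3B lower at -0.26 (adjusted p = 0.017). In the diaphragm alone TFAM was -0.04 from the other tissues (adjusted p = 0.91). Of 7 other mitochondrial proteins 6 were higher, VDAC3 (1.84) and CYCS (1.698) most, and 1 lower.

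The diaphragm works without rest as an oxidative muscle, and Biceps femoris is counted as glycolytic. PDHA1, MDH2 and IDH2 were higher in the diaphragm, 3 of 8 genes, where 12.1% of all probe sets were higher and 13.1% lower. Of the 11968 probe sets at or above the median in mean level, 2534 were higher and 1433 lower. PDHA1 read 9.42, 9.53, 9.43 and 9.36 in the diaphragm and 8.63, 8.78, 8.77 and 8.45 in Biceps femoris. Every diaphragm was above every Biceps femoris, by 0.78 ± 0.11 within animals (SD, n = 4). The limma fit over all arrays gave an adjusted p of 0.00095. That fit pools the spread over all tissues and does not test the differences within animals. MDH2, also without overlap, was 0.53 ± 0.14 higher within animals (SD), with an adjusted p of 0.0026 in the same fit. IDH2 read 12.03, 12.27, 11.69 and 11.95 in the diaphragm and 11.29, 11.09, 11.40 and 11.90 in Biceps femoris. It was higher in the diaphragm of all 4 pigs, by 0.57 ± 0.50 (SD), but by only 0.05 in the IB female. The same fit gave IDH2 an adjusted p of 0.017. Left out in turn, the LW male and the LW female each ended the call of IDH2, at 0.51 (adjusted p = 0.1) and 0.36 (adjusted p = 0.25).

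CS differed by 0.01 ± 0.13 within animals, positive in 2 pigs and negative in 2. OGDH (0.18), SUCLG1 (0.19) and FH (0.20) had positive differences in 3 of 4 pigs each and were not called (adjusted p of 0.14 to 0.36). IDH3A pointed the other way, at 8.60, 8.21, 8.37 and 7.89 in the diaphragm and 8.91, 8.71, 8.88 and 7.68 in Biceps femoris, a difference of -0.28 (adjusted p = 0.24). By its second probe set IDH3A differed by 0.04, -0.82, -0.73 and 0.65 within animals, positive in 2 pigs and negative in 2. The Biceps femoris of the IB female was 1.15 below the mean of the other 3 for IDH3A by its first probe set. Without that array IDH3A was lower in the diaphragm by its first probe set, by 0.55 (adjusted p = 0.019), and IDH2 was 0.75 (adjusted p = 0.004) higher. In the same array SUCLA2 stood at 6.46 against 9.92 to 10.27 in the other 3, SUCLG2 at 4.67 against 8.19 to 8.43, and TFAM at 4.54 against 7.56 to 8.12. SUCLG2 was 1.85 and SUCLA2 1.16 higher in the diaphragm with this array. Their diaphragm means of 9.24 and 10.30 compare with 8.30 and 10.04 in the other 3 Biceps femoris. Markers of fast fibres averaged 11.90 in the diaphragm and 13.03 in Biceps femoris (4 of 6 genes measured), and those of slow fibres 13.25 and 12.89 (6 of 6). Their part in the differences was not tested. With the 8 muscle arrays fitted alone, 0 of the 8 genes were called by limma and 3 had an unadjusted p under 0.05.

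**Figure D3:**
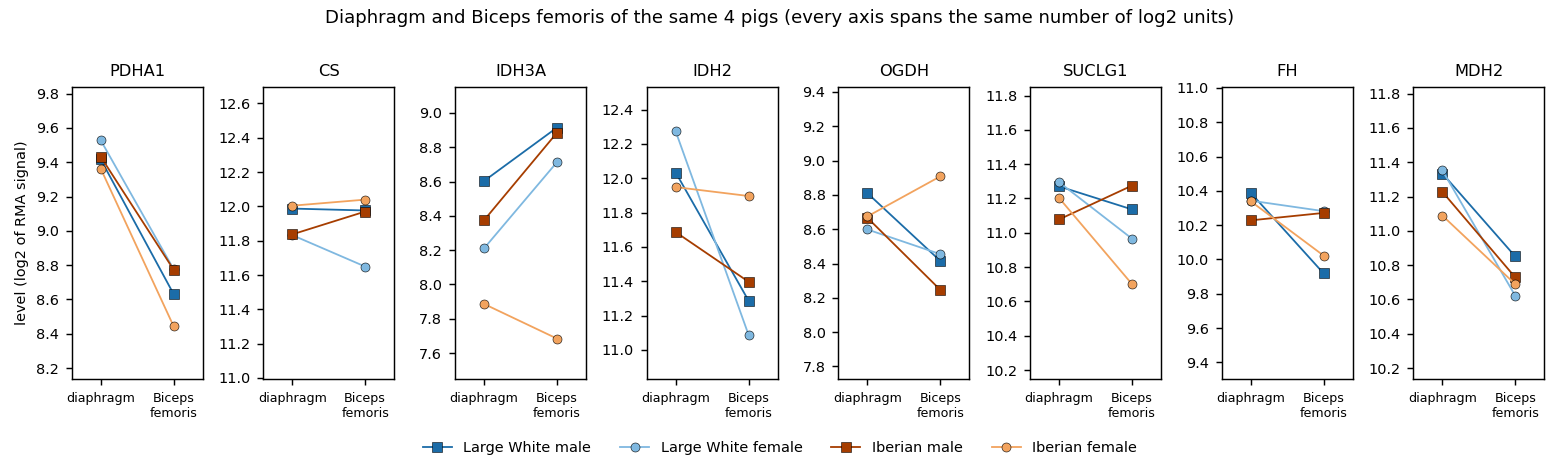
Levels of the 8 genes in the diaphragm (left in each panel) and Biceps femoris (right), as log2 RMA signal. Lines join the 2 muscles of 1 animal, and every vertical axis spans the same number of log2 units. All 4 lines fall from diaphragm to Biceps femoris for PDHA1, MDH2 and IDH2, and the IB female lies low in both muscles for IDH3A.

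Blood was lower than the mean of the other 15 tissues for all 8 genes, where 35% of all probe sets were lower and 43.5% higher. Most brighter probe sets were also lower in blood. Of the 11968 at or above the median in mean level, as all 8 genes were, 6708 were lower and 2795 higher. The differences ran from -0.87 for OGDH to -1.86 for MDH2, 1.83-fold to 3.62-fold lower, with adjusted p of 1.2e-09 or less. MDH2 in blood read 7.83, 7.35, 7.46 and 7.47, below all the 60 other arrays, of which the lowest was 7.86 in a thyroid gland. SUCLG1 (8.94, 8.77, 8.91 and 9.14) and FH (7.62, 7.49, 7.97 and 7.64) were also below every other array. IDH2 in blood (7.97, 7.90, 7.9999 and 8.02) was not, as 13 arrays of other tissues lay at or below its highest value. The paper counted probe sets whose arrays of a tissue lay all above or all below the rest, and blood had the most. Their share of all probe sets was not computed here. The 10 other cycle genes were all lower as well, with SUCLA2 (-2.23) and SDHC (-2.17), a membrane anchor of succinate dehydrogenase, lowest. PDK4 was -6.11 log2 units from the other tissues and ME1, the cytosolic malic enzyme, -3.70. The red cell markers AHSP and ALAS2 were highest in blood (13.04 and 13.88), while HBB was not (6.69, against 8.58 in the olfactory bulb), and the white cell markers CD3E and PTPRC were also at their highest there (10.19 and 8.33). The 3' minus 5' control signal of actin was 2.98 to 3.45 in blood, against 1.76 to 2.97 in the other arrays, and that of GAPDH 0.47 to 0.82, against -0.05 to 2.24. The part of cell make-up and of RNA quality in these differences was not tested.

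In the liver the 8 genes were called in both directions. FH (1.24), MDH2 (0.66), SUCLG1 (0.63), OGDH (0.58) and PDHA1 (0.34) were higher, CS (-1.72) and IDH3A (-1.03) lower, and IDH2 (-0.04, adjusted p = 0.84) was not called. Of all probe sets 20.5% were higher and 28.8% lower in liver. The call of PDHA1 was lost without the LW male or the LW female (adjusted p = 0.18 and 0.19). Of the 10 other cycle genes 5 were higher and 1 lower, SUCLG2 at 2.16 and SUCLA2 at -1.09. In the pyruvate dehydrogenase list 3 of 5 genes were higher and 2 lower (-1.38 to 1.22), and of 9 cytosolic counterparts and shuttle genes 4 were higher and 3 lower, with a median of -0.20. All 3 genes that refill or drain the cycle were higher. PCK1 read 12.93, 12.49, 12.72 and 12.47 (6.88 log2 units above the other tissues), PCK2, its mitochondrial form, 10.28, 10.22, 10.24 and 9.99 (5.39), and PC 10.80, 11.38, 10.32 and 10.65 (2.60). IDH1 was 2.73 higher and the carrier SLC25A12 -2.65. Of 7 other mitochondrial proteins, 6 were lower and 1 higher in liver, with VDAC3 (-1.36) lowest.

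In back fat 2 of the 8 genes were higher (PDHA1 and CS) and 4 lower, with 19% and 23.1% of all probe sets in these directions, and abdominal fat gave the same counts, 2 and 4, with 16.9% and 22.4%. IDH2, MDH2, IDH3A and OGDH were the lower genes in both. IDH2 and MDH2 had counterparts in the cytosol that did not follow them, as IDH1 was 1.81 higher in back fat and 1.55 in abdominal fat, and MDH1 0.82 and 0.36, all with adjusted p of 0.014 or less. In back fat PCK1 (4.67), ME1 (3.82) and PC (3.67) were the genes furthest above the other tissues among the lists, and PPARGC1A was furthest below (-3.55). Between back fat and abdominal fat no gene of the 8 was called by limma (0 called, 2 at an unadjusted p under 0.05), in a contrast with 0.288% of probe sets higher and 0.305% lower. PDHA1 read above abdominal fat in the back fat of all 4 pigs, with a mean difference of 0.51 ± 0.21 (SD). Its adjusted p in the limma fit over all arrays was 0.24. CS (0.25), MDH2 (0.14) and IDH3A (0.11) were also higher in the back fat of all 4 pigs. OGDH, SUCLG1 and FH were higher there in 3 of 4 pigs each, and IDH2 in 2.

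**Figure D4:**
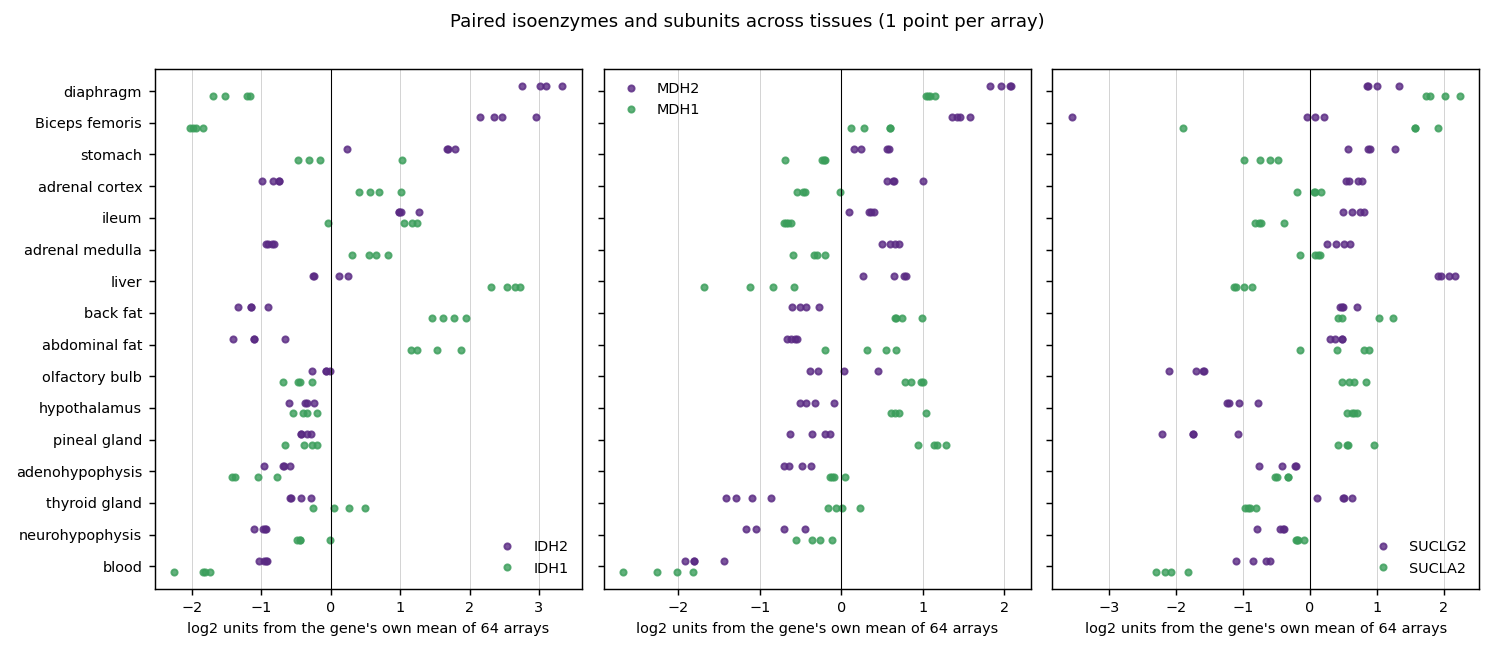
Paired isoenzymes and subunits over the 16 tissues, as log2 units from each gene's own mean over 64 arrays, 1 point per array. The left panel shows mitochondrial IDH2 and cytosolic IDH1, the middle panel mitochondrial MDH2 and cytosolic MDH1, and the right panel SUCLG2 and SUCLA2, the beta subunits that partner SUCLG1. IDH2 and IDH1 lie on opposite sides in muscle and fat, and SUCLG2 and SUCLA2 on opposite sides in liver and brain. A single Biceps femoris array lies far to the left for both.

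The adrenal cortex had 4 of the 8 genes higher (OGDH, MDH2, CS and FH) and 2 lower (IDH2 and IDH3A), against 18.9% and 20% of all probe sets. IDH3A was near the threshold in limma, at -0.31 (adjusted p = 0.047), and at -0.46 (adjusted p = 0.022) by its second probe set. Of the 10 other cycle genes 8 were higher in the cortex, led by DLST (0.97), the E2 subunit that works with OGDH, and SDHA (0.75). The adrenal medulla had the same 4 higher, with IDH2 and SUCLG1 lower, against 19.9% and 23.8% of all probe sets. The difference between medulla and cortex was at most 0.19 in size for any of the 8 genes, with 0 called by limma and 0 at an unadjusted p under 0.05. In that contrast 0.999% of probe sets were higher and 0.00418% lower, and the cortical marker STAR read 12.77 in the medulla and 12.79 in the cortex.

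In the stomach, sampled as epithelium of the body, IDH2 (1.44), SUCLG1 (1.23) and MDH2 (0.41) were higher and IDH3A (-0.35) lower, the last no longer called without the LW male or the LW female (adjusted p = 0.24 and 0.33), against 18.2% and 21.3% of all probe sets. In the ileum IDH2 (1.13), MDH2 (0.32), FH (0.31) and SUCLG1 (0.26) were higher and none was lower, against 23.4% and 29.5%. The IB female stomach was unlike the other 3. Its IDH2 was 9.17 against 10.62 to 10.73, its CS 10.15 against 10.96 to 11.05 and its PDHA1 6.98 against 7.73 to 8.04, while its SUCLG1 (11.11) lay among the others (11.03 to 11.37). The same array had the acid pump genes ATP4A at 7.51 and ATP4B at 8.93, against 12.61 to 12.81 and 13.02 to 13.22 in the other 3, and the brush border gene VIL1 at 9.51, against 4.48 to 6.73. GIF, the third gene measured of the list chosen for parietal cells, was not low there (11.84, against 5.89 to 10.97). Whether GIF marks parietal cells in these samples was not tested. The part of cell make-up in the low cycle genes was not tested. Without this array the stomach exceeded the other tissues by 1.81 (adjusted p = 2.5e-19) for IDH2 and by 0.53 (adjusted p = 0.00096) for PDHA1, which had not been called with it (0.28), and CS was at 0.19 (adjusted p = 0.1).

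Between stomach and ileum, SUCLG1 was higher in the stomach by 0.91 ± 0.03 within animals (SD, n = 4), with differences of 0.88 to 0.93. FH was lower there, by 0.35 ± 0.28 (SD), in 3 of 4 pigs. The limma fit over all arrays gave an adjusted p of 4.2e-11 for SUCLG1 and 0.01 for FH. That fit pools the spread over all tissues and does not test the differences within animals. Of all probe sets 18% were higher and 17.3% lower. Without the IB female stomach, IDH2 at 0.66 (adjusted p = 0.00021) and PDHA1 at 0.61 (adjusted p = 0.0035) were called as well.

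The olfactory bulb had 1 gene higher (IDH3A) and 4 lower, against 20.5% and 30.8% of all probe sets, the hypothalamus 1 higher and 6 lower (21% and 34.1%), and the pineal gland 1 higher and 6 lower (21.6% and 28.9%). CS was called in none of the 3 by its first probe set, with differences of 0.01, -0.09 and 0.15. By its second probe set CS was lower in the olfactory bulb, at -0.29 (adjusted p = 0.03), and in the hypothalamus, at -0.39 (adjusted p = 0.0037), and was -0.14 (adjusted p = 0.33) in the pineal gland. Without the pineal gland of the LW male, IDH2 there was -0.36 (adjusted p = 0.052), no longer called, and CS 0.28 (adjusted p = 0.028), now called by its first probe set but not by its second, at 0.02 (adjusted p = 0.9). The median of all probe sets was itself shifted by -0.11 in the olfactory bulb, -0.14 in the hypothalamus and 0.11 in blood. PDHA1 was the lowest of the 8 in all 3 brain samples, -0.69, -0.82 and -0.998. SUCLG2 was -1.15 and SUCLA2 0.68 log2 units from the other tissues in the hypothalamus, so the 2 partners of SUCLG1 were called in opposite directions there. The adenohypophysis and the neurohypophysis each had 0 genes higher (20.8% and 20.6% of all probe sets) and 7 lower (23.9% and 28.5%), all but IDH3A. In the adenohypophysis OGDH was near the threshold in limma, at -0.25 (adjusted p = 0.04). The thyroid gland also had 0 higher and 7 lower, all but FH (23.5% and 30%), with MDH2 at -1.25 and CS at -0.98 lowest.

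Between adenohypophysis and neurohypophysis 0 were called and 2 had an unadjusted p under 0.05, where 9.46% of probe sets were higher and 10.3% lower. Between hypothalamus and olfactory bulb, likewise with 0 called and 2 at an unadjusted p under 0.05, 6.28% and 5.54% of probe sets were called. For IDH3A the difference between hypothalamus and olfactory bulb was 0.48 by its first probe set (adjusted p = 0.062), without overlap. The second probe set gave 0.30, positive in all 4 pigs, with overlap (hypothalamus from 7.29, olfactory bulb up to 7.36). The first probe set was called without the Biceps femoris of the IB female or the pineal gland of the LW male (adjusted p = 0.022 and 0.048). These arrays are in neither tissue but share the estimate of spread. For the diaphragm alone against the other 15 tissues all 8 genes were higher (22% of probe sets higher, 27.7% lower), and for Biceps femoris alone also (34.8% and 30.5%).

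Breeds were compared on the mean of 16 tissues in each animal, so that the pig was the unit. Between LW and IB pigs none of the 8 genes was called by limma on 4 animals (0 called and 0 at an unadjusted p under 0.05), while 0.0919% of probe sets were called. OGDH averaged 7.49 and 7.51 in the LW male and female and 7.31 and 7.38 in the IB male and female, a difference of 0.16 ± 0.06 (SE, adjusted p = 0.38). MDH2 averaged 9.46 and 9.25 in LW and 9.15 and 9.23 in IB pigs (0.16 ± 0.09, adjusted p = 0.53), and FH 8.88 and 8.91 in LW and 9.04 and 9.002 in IB pigs (-0.13 ± 0.06, adjusted p = 0.46). IDH3A averaged 7.20 and 7.17 in LW and 7.06 and 6.998 in IB pigs (0.16 ± 0.06, adjusted p = 0.38). With the 64 arrays taken as replicates, which counts each pig 16 times, OGDH, MDH2 and FH were called (adjusted p = 0.024, 0.014 and 0.022), as were 12.7% of probe sets. With 2 pigs against 2, an exact permutation test cannot give a p below 0.33.

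Within tissues, both LW arrays lay above both IB arrays in 31 of the 128 combinations of gene and tissue (24.2%), against 19.9% over all probe sets, and both IB arrays above both LW arrays in 20 (15.6%), against 20.6%. The LW arrays were the higher ones for OGDH in 8 tissues and the IB arrays in 0, and the counts were 7 and 0 for MDH2 and 2 and 8 for FH. They were 4 and 1 for IDH3A, 3 and 2 for CS, 3 and 4 for IDH2, 2 and 1 for SUCLG1 and 2 and 4 for PDHA1. The tissues share the same 2 pigs a breed, so they are not separate observations of a breed. In the hypothalamus OGDH was 7.02 and 7.27 in LW and 6.36 and 6.69 in IB pigs. PDHA1 in fat stood at 8.17 and 8.19 in LW and 8.70 and 8.81 in IB back fat, and 7.64 and 7.84 in LW and 7.91 and 8.46 in IB abdominal fat, without overlap in either. For the breed by tissue interaction 0 of the 8 genes were called (0 at an unadjusted p under 0.05, with 2.08% of probe sets called). For sex by tissue the counts were also 0 and 0 (0.125%). The second probe set of IDH3A had an unadjusted p of 0.046 for breed by tissue (moderated F test, adjusted p = 0.29). These F tests took arrays as replicates, with 2 pigs a breed.

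**Figure D5:**
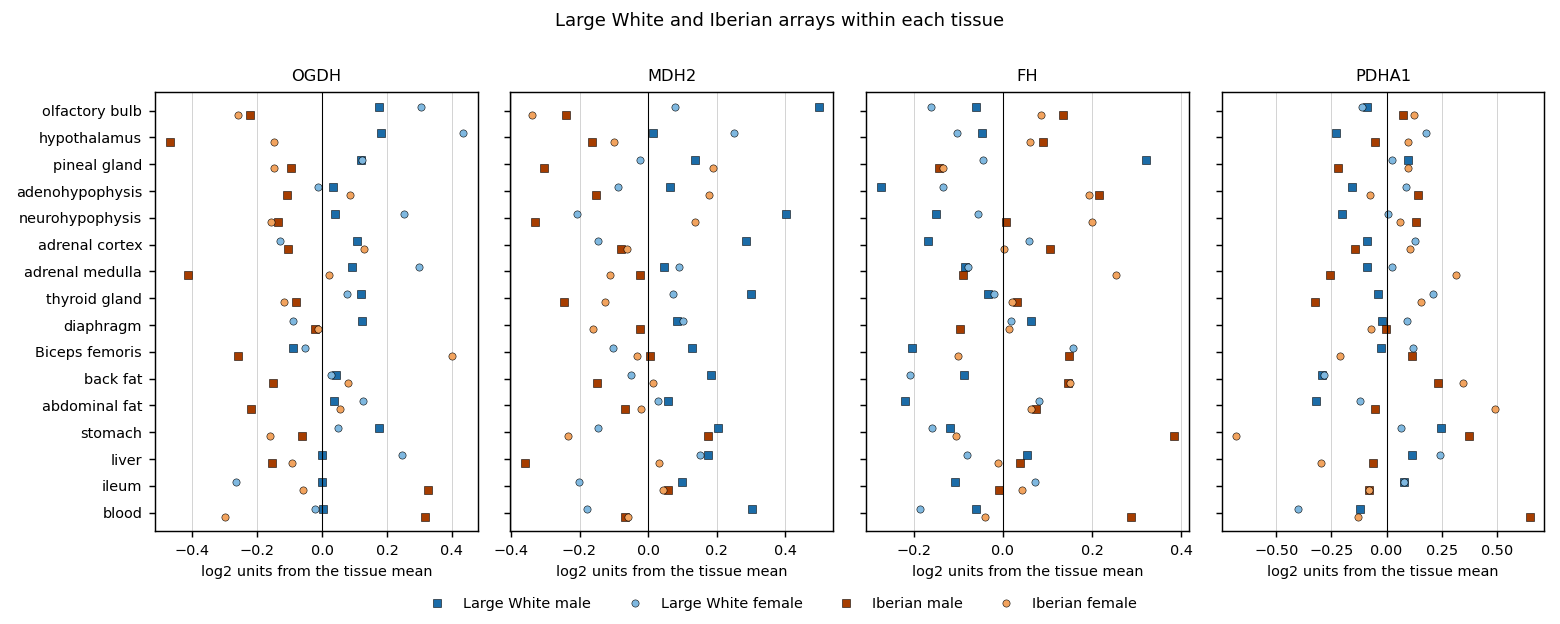
Arrays of OGDH, MDH2, FH and PDHA1 as log2 units from the mean of their tissue, with the 16 tissues down the page. LW arrays (blue) are drawn above IB arrays (orange), males as squares and females as circles. Both LW arrays are to the right of both IB arrays in 8 tissues for OGDH and 7 for MDH2, and to the left in 8 tissues for FH.

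Between males and females none of the 8 genes was called by limma on animal means (0 called, 0 at an unadjusted p under 0.05, with 0.0627% of probe sets called), nor with the 64 arrays as replicates (0 and 0, with 1.45% called). Differences between males and females over 16 tissues ranged from -0.04 for OGDH to 0.06 for MDH2. Both male arrays lay above both female arrays in 17 of 128 combinations (13.3%, against 14.9% over all probe sets) and both female arrays above both male arrays in 20 (15.6%, against 15.1%).

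Over the 16 tissue means, which share their 4 pigs, Pearson's r between pairs ran from 0.27 (IDH3A and PDHA1) to 0.93 (OGDH and MDH2), as a description. OGDH, SUCLG1, FH, MDH2 and PDHA1 were each correlated at 0.76 or more with one another, while the mean r to the other 7 genes was 0.43 for IDH3A and 0.52 for CS, the lowest. Among named probe sets outside the 8, the profiles most like their mean standardised profile were NDUFA9 (r = 0.98), NDUFS7 (0.98), NDUFV1 (0.97), CUNH14orf2 (0.97) and COQ9 (0.96). The probe set nearest to a single gene was SDHB for FH (0.96), COQ6 for OGDH (0.97), NDUFA9 for MDH2 (0.95), CAP2 for IDH3A (0.94), ETFDH for PDHA1 (0.93), QRSL1 for IDH2 (0.92), TCEA3 for SUCLG1 (0.90) and IMMT for CS (0.88).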

How the data were processed

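RNA of 64 tissue samples was hybridised to a porcine Affymetrix array. The deposited log2 values had been made by the authors with RMA from scanned signals, the submitters' notes naming GCOS. Versions were not stated in those notes or the methods. The methods mention a log transformation after RMA, and do not say whether it was a further logarithm of the deposited values. The natural log of the deposited values was therefore tried as an alternative. An array gives no read depth, and the number of arrays limits precision. Every value column had a sample.

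The table held 24123 probe sets, of which 188 controls were left out and 23935 tested. Gene symbols came from the platform annotation, with 10069 probe sets bearing 1 symbol, 198 several and 13668 none. Entrez identifiers matched 9961 of the first kind to RefSeq (Sscrofa11.1), which changed 0 symbols. Each gene was read from its brightest probe set over all arrays, and the second probe sets of CS and IDH3A were an alternative.

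A linear model with tissue, breed and sex was fitted over the 64 arrays with limma 3.58.1 in R 4.3.3, for all probe sets, with Benjamini-Hochberg adjustment at 0.05. All arrays share 1 estimate of spread. Breed and sex were also tested on the mean of 16 tissues in each animal. The p-values measure the spread between arrays of 4 pigs. Arrays of the same pig deviated together (mean r of their residuals 0.19 over 480 pairs, with 385 over 0.1) more than arrays of different pigs (-0.06 over 1440 pairs, with 40 over 0.1), and the animal as a block was an alternative, since the labels place a male and a female of each breed in every tissue. Other alternatives were leaving out each animal, repeated quantile normalization, median centring, a filter on low probe sets, a robust trended prior, the arrays of a pair alone, and leaving out single arrays that stood apart. Leaving out the stomach of the IB female was chosen after seeing the data. The members and gene lists were chosen with earlier results of these data known. All 8 genes were named throughout, with list genes at the ends of their list's differences, and single-array values of other genes were chosen after they were seen. The steps were tested on simulated data. Tables were read with pandas 2.3.3 and numpy 2.4.6 (Python 3.11.15), and figures were drawn with matplotlib 3.10.9.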

Additional observations from a re-analysis of the deposited data

Results flagged for a closer look

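In 7 of 160 groups of 4 arrays, 1 array lay outside the others by Dixon's test, where chance alone gives about 5% of groups. In the stomach of the IB female CS was 10.15 (the other 3 were 10.96 to 11.05) and IDH2 was 9.17 (10.62 to 10.73). IDH3A was 7.68 in the Biceps femoris of the IB female (8.71 to 8.91), and IDH2 was 10.20 in the ileum of the IB male (9.93 to 9.95). FH was 9.48 in the adrenal medulla of the IB female (9.13 to 9.15), 8.57 in the abdominal fat of the LW male (8.85 to 8.87) and 9.29 in the stomach of the IB male (8.74 to 8.80).

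In 9 of 120 combinations of probe set, pair of tissues and breed or sex (7.5%), both animals of one breed or sex differed one way between 2 tissues and both of the other the opposite way, against 7.75% of such combinations over all probe sets, and none of these differences was tested. Between diaphragm and Biceps femoris CS differed by 0.10 in LW and -0.08 in IB pigs, 0.18 apart. Between stomach and ileum the means were -0.55 in LW and 0.23 in IB pigs for IDH3A (-0.78 apart), -1.13 and 0.09 for its second probe set (-1.21 apart), and 0.34 and -0.15 for OGDH (0.49 apart). Between adrenal medulla and cortex IDH3A differed by 0.16 in LW and -0.04 in IB pigs (0.20 apart), and the second probe set of CS by -0.13 in males and 0.05 in females (-0.18 apart). FH differed by -0.05 in LW and 0.15 in IB pigs between adenohypophysis and neurohypophysis (-0.20 apart), and by 0.04 in LW and -0.03 in IB pigs between hypothalamus and olfactory bulb (0.071 apart). OGDH differed by -0.15 in males and 0.09 in females between hypothalamus and olfactory bulb (-0.24 apart).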

How the results depend on the processing

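All 8 genes were called in muscle and in blood under every alternative run. With the animal as a replicate block the counts of genes called were 8 for muscle, 8 for blood, 3 for the diaphragm against Biceps femoris, 2 for the other pairs of tissues and 103 for single tissues, as without it, and it changed no call. The diaphragm against Biceps femoris gave 3 genes, and 0 with the 8 arrays of the pair alone (adjusted p = 0.068 for PDHA1, 0.12 for MDH2 and 0.22 for IDH2). Over all probe sets that comparison gave 2885 higher and 3126 lower, against 70 and 64 with 8 arrays and 1700 and 1545 without the Biceps femoris of the IB female. With the arrays of a pair alone FH between stomach and ileum was no longer called (adjusted p = 0.12). IDH3A between hypothalamus and olfactory bulb was called by its first probe set (adjusted p = 0.026). The other pairs of tissues gave 2, and 1 to 4 when each animal was left out. Without the stomach of the IB female, a choice made after seeing the data, they gave 4, IDH2 and PDHA1 being added between stomach and ileum. For breed, 0 genes were called on 4 animals and 3 with the 64 arrays as replicates. CS was not called by its first probe set and was by its second in 4 tissues, the olfactory bulb and hypothalamus (lower), the stomach, at -0.03 and 0.41 (adjusted p = 0.0031 in limma), and the ileum, at 0.18 and 0.33 (adjusted p = 0.015), and the cause was not tested. With 4 pigs, differences between breeds or sexes below the spread between animals were not detectable.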
